A study of Homo sapiens with 17 samples.

Results

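The genes examined were 9 genes of MHC class I antigen presentation, namely the heavy chains HLA-B, HLA-C, HLA-E and HLA-F, the light chain B2M, the peptide transporter subunits TAP1 and TAP2, the loading factor TAPBP (tapasin) and the transactivator NLRC5. They were taken by symbol from the deposited table, in which they were 9 of 58870 entries, and all 9 passed the filter on low counts that kept 15365 genes for testing. RNA came from MDA-MB-231, an established line from a human triple-negative breast cancer that the labels describe as mesenchymal and of basal B type. All groups were this line given 45 nM TRAIL, a ligand of death receptors of the TNF receptor family, and they differed in time: 0, 3, 6, 12 and 24 h with 3 libraries each, and 1 h with 2. The dose was chosen by the submitters to be suboptimal, so that RNA of living cells rather than of dying ones would be read. The 0 h libraries carry the same treatment label as the others, and no library labelled untreated at a later time was among those analysed, so time with TRAIL and time in culture cannot be told apart. In RNA from a whole culture, fewer cells that express a gene and less RNA of it per cell also cannot be told apart.

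Class I molecules display peptides of the cell's own proteins to CD8 T cells and to natural killer cells. Peptides made largely by the proteasome are carried into the endoplasmic reticulum by the TAP1 and TAP2 heterodimer, and tapasin holds the empty heavy chain at the transporter while it is loaded. A heavy chain leaves for the surface together with B2M. NLRC5 acts with the RFX complex, NF-Y and CREB family factors at the promoters of these genes, and NF-kB and interferon regulatory factors bind at many of them.

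The promoters of 6 members are printed because the RNA of TAP1 and TAP2 rose, that of HLA-B, HLA-C and HLA-F fell, and B2M serves all heavy chains. The sequences are the 250 bases before the RefSeq start on GRCh38.p14, written 5′ to 3′ on the gene's own strand. Capitals mark every match, on either strand, to the NF-kB consensus or to the core of the interferon-stimulated response element (ISRE), which is a pair of GAAA repeats with any 2 bases between them. The windows lie at chr6:31357180-31357429 (minus strand) for HLA-B, chr6:31272093-31272342 (minus strand) for HLA-C, chr6:29723184-29723433 (plus strand) for HLA-F, chr6:32853705-32853954 (minus strand) for TAP1, chr6:32838740-32838989 (minus strand) for TAP2 and chr15:44711267-44711516 (plus strand) for B2M. RefSeq held a second start for TAP1, which is not printed.
HLA-B: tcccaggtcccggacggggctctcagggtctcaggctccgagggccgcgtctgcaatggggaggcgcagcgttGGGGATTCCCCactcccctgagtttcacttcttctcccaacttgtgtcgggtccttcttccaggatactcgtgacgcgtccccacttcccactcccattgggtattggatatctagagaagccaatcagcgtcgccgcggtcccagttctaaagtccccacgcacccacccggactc
HLA-C: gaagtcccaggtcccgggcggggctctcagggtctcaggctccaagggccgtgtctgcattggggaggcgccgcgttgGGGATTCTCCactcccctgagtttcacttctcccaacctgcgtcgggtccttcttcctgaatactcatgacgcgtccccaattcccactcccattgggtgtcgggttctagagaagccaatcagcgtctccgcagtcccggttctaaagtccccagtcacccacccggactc
HLA-F: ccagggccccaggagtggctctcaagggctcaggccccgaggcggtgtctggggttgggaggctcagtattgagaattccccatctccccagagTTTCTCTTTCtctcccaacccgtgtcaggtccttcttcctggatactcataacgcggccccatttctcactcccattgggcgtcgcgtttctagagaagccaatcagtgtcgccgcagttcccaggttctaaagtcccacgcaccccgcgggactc
TAP1: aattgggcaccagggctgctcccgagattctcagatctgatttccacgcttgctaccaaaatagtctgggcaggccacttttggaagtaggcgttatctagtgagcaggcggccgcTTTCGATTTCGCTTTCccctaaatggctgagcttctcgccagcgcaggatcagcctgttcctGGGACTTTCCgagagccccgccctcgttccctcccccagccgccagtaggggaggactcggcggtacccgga
TAP2: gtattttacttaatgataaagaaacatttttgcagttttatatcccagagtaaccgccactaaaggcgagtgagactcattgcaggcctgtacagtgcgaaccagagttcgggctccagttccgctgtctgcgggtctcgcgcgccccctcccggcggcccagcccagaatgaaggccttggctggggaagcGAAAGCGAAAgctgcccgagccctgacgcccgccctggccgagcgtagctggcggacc
B2M: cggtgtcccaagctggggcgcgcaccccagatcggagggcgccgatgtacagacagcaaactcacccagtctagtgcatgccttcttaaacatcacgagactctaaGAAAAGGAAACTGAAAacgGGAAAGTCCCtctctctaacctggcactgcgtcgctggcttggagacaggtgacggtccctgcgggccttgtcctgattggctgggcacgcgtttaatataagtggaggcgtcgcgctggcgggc

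In these windows the HLA-B capitals run from -177 to -167 relative to the start and hold a pair of overlapping NF-kB matches, and the HLA-C match lies from -172 to -163. The TAP1 window holds overlapping ISRE matches from -134 to -119 and an NF-kB match from -72 to -63. TAP2 has an ISRE match from -58 to -49 and none to the NF-kB consensus. HLA-F has an ISRE match from -156 to -147, and B2M has overlapping ISRE matches from -144 to -129 followed by an NF-kB match from -125 to -116. Of the 9 members, 7 had a promoter entry, and HLA-E and NLRC5 did not. Over the full 300-base windows, which add 50 bases after the start, 5 of the 7 held the NF-kB consensus (B2M, HLA-B, HLA-C, TAP1 and TAPBP), against 11.26% of 34943 RefSeq windows. The ISRE core was found in 5 of the 7 (B2M, HLA-F, TAP1, TAP2 and TAPBP), against 3.57% of windows. The CCAAT box, CCAAT, was present in 5 of the 7 and 34.65% of windows, and the X2 box core, TGACG, in 4 of the 7 and 24.51%. The interferon-gamma activated sequence, TTCNNNGAA, was found in 1 member, at the second TAP1 start, and in 7.66% of windows. A match describes letters only, and members of the MHC are related in sequence, so their matches are not independent.

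On the genome (GENCODE 29, GRCh38), 7 of the 9 genes lie in the MHC on chromosome 6, from HLA-F at chr6:29722775-29738528 to TAPBP at chr6:33299694-33314387. TAP1 (chr6:32845209-32853978) and TAP2 (chr6:32821833-32838780) lie close together there. The immunoproteasome gene PSMB8 (chr6:32840717-32844703) lies between them, and the span of another, PSMB9, overlaps TAP1. B2M is on chromosome 15 (chr15:44711487-44718877) and NLRC5 on chromosome 16 (chr16:56989485-57083531). Several entries share sequence or ground with others. The counts of HLA-B, HLA-C, HLA-F, TAP1 and TAP2 were not whole numbers in 17 of 17 libraries and those of HLA-E in 16, which arises where fragments are divided between entries, whereas B2M, TAPBP and NLRC5 had whole counts in all. Division of reads between HLA-B and HLA-C, and with other class I genes, makes their separate levels uncertain. The annotated span of TAP1 lies within that of PSMB9 on the other strand, and the strand setting of the counting is not given in the sources used here.

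Total counts per library ran from 13731520 to 19234924, and scaling factors from 0.939 to 1.06. The share of counts from mitochondrial genes was 5.53% to 8.37% at 0 h and 7.65% to 9.71% over 1 and 3 h, and lower at 6 h (3.97% to 5.45%) and 24 h (3.66% to 4.14%) than in any 0 h library. At 12 h it was 5.01% to 6.80%, overlapping with 0 h. Relative to the average library, log2 CPM (CPM are counts scaled to the TMM-adjusted library total) sloped with transcript length by -0.066 to -0.011 per doubling at 0 h, -0.14 to -0.062 at 3 h, 0.012 to 0.097 at 6 h, -0.026 to 0.075 at 12 h and 0.023 to 0.14 at 24 h. The libraries of 6 h and 24 h thus did not overlap with those of 0 h in either measure, and the part of the mitochondrial share in the results was not tested. VIM, CD44, FOSL1, AXL and CAV1, markers of the mesenchymal state of the line, were all expressed, the lowest value being 395.2 CPM, of FOSL1. ESR1 and PGR stayed below 1 CPM, CDH1 reached 1.01 CPM, and EPCAM (13.1 to 19.3 CPM) and ERBB2 (56.4 to 70.9 CPM) were low but present. Markers of blood cells, which could carry class I RNA of their own, summed to 1.25 to 2.44 CPM, with 6 of the 7 below 1 CPM in every library. CD3E was at 0 in all 17 libraries. By time, the sum of these 7 markers was 1.62 to 1.99 CPM at 0 h, 1.26 to 1.51 at 6 h, 1.25 to 2.06 at 12 h and 1.99 to 2.42 at 24 h.

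Per kilobase of transcript, the order of levels at 0 h was HLA-B, B2M, HLA-C, HLA-E, TAPBP, TAP2, TAP1, HLA-F and NLRC5. Each level was divided by the length of 1 transcript per gene, the longest of those annotated as principal. That was 1.547 kb for HLA-B, 1.705 kb for B2M, 2.497 kb for TAP2 and 2.959 kb for TAP1. Which transcripts the cells made was not tested, and with other lengths the order of these genes could differ. HLA-B RNA stood at 719.0 to 748.9 CPM per kb and B2M at 613.5 to 683.5. HLA-C followed at 257.2 to 264.3, HLA-E at 146.6 to 154.8 and TAPBP at 129.8 to 130.8. The transporter subunits were unequal, with TAP2 at 71.2 to 72.8 CPM per kb and TAP1 at 32.9 to 36.5. HLA-F was at 12.3 to 13.6 and NLRC5 at 3.31 to 3.58. At 0 h no neighbours in this order overlapped between libraries. The means of HLA-B and B2M were in the opposite order at 12 h (541.4 and 580.2 CPM per kb) and 24 h (549.4 and 570.5). Their ranges overlapped between libraries, but B2M was above HLA-B within each of the 3 libraries of both times. The range of a member over all 17 libraries was narrow, from 1.19-fold between the lowest and the highest library for HLA-E to 1.88-fold for HLA-F.

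**Figure D1:**
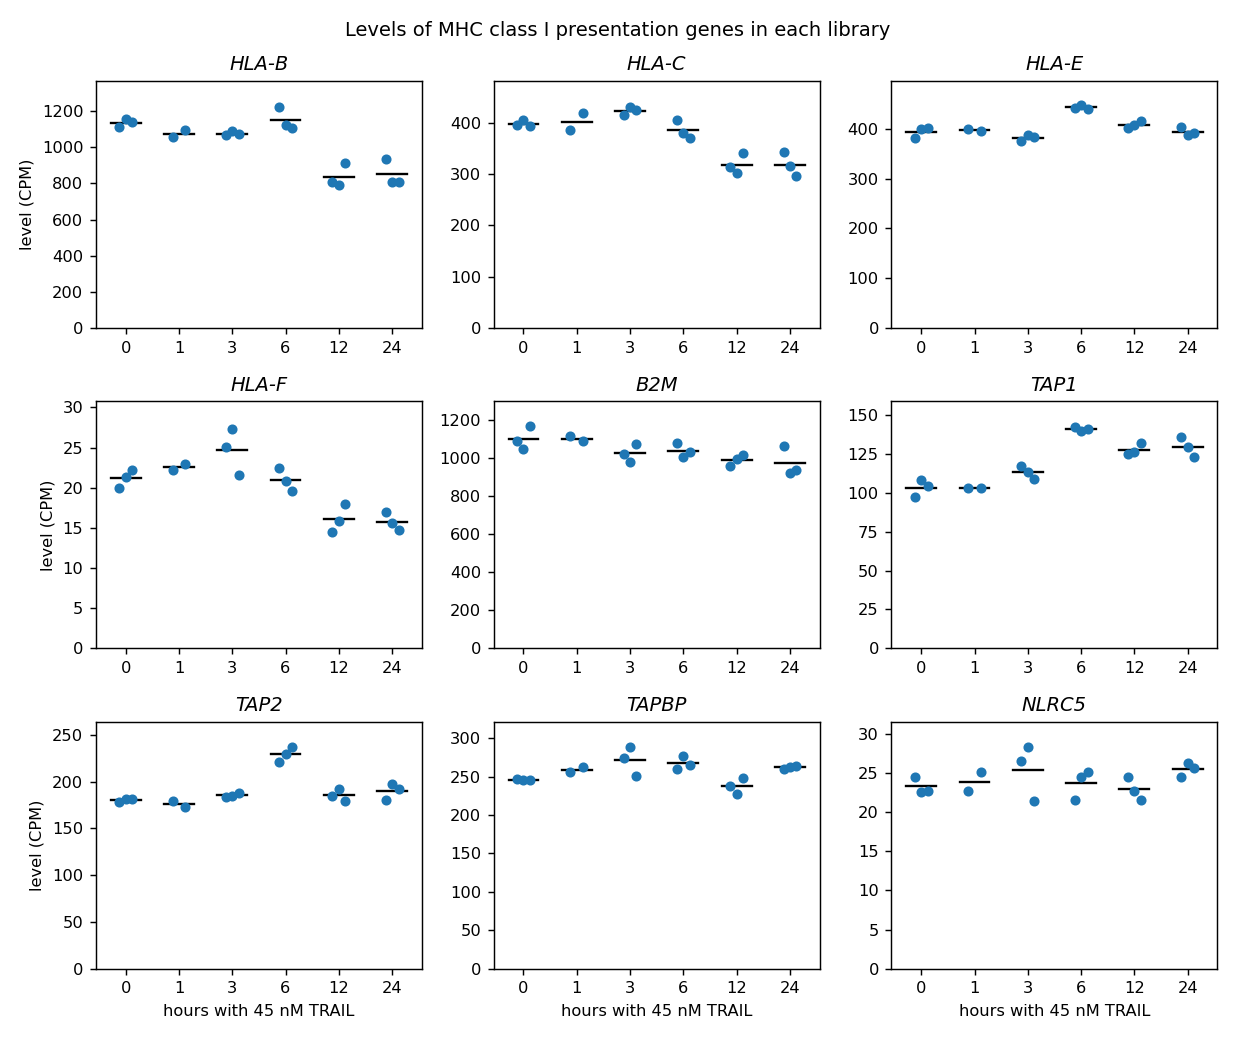
Level of each gene in CPM (vertical axis from 0) in every library (points) against hours with 45 nM TRAIL (horizontal axis, evenly spaced), with the mean of each time as a bar; n = 3 per time and 2 at 1 h. TAP1 is above its 0 h libraries from 3 h on, highest at 6 h (139.9 to 142.1 CPM), TAP2 is highest at 6 h, and HLA-B, HLA-C and HLA-F lie below theirs at 12 and 24 h.

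The comparison of each later time with 0 h asks which parts of the pathway moved, and those of consecutive times ask when. A gene is called here when its p from the edgeR quasi-likelihood test, adjusted by the Benjamini-Hochberg method over all 15365 genes, is below 0.05. In the test over all 6 times, 7 of the 9 members were called, against 64.2% of all genes tested, and the exceptions were B2M (adjusted p = 0.0897) and NLRC5 (0.518). The TAPBP call (0.035) was lost with upper-quartile scaling (0.0992), without a filter (0.219), with replicates 2 and 3 averaged at 6 h and 24 h (0.0937) and without any of several single libraries. HLA-E (0.00787) lost its call with upper-quartile scaling (0.0709) and with the averaged replicates (0.0694). B2M was called with DESeq2 (0.0383), upper-quartile scaling (0.0458), offsets for length and GC (0.00233) and without 24 h replicate 1 (0.012). At 1 h 0 members were called, where 0.312% of all genes were (0.26% higher, 0.0521% lower), and 0 had an unadjusted p below 0.05; DESeq2 also called 0. At 3 h the count was again 0, against 17.7% of all genes (9.04% higher, 8.71% lower), with 3 at an unadjusted p below 0.05, and DESeq2 called 1. Without 3 h replicate 3, 2 were called.

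At 6 h TAP1, TAP2 and HLA-E were higher than at 0 h and no member was lower, that is 3 of 9, against 16.9% of all genes higher and 13.2% lower (30.1% in either direction). The median log2 fold change of the members was 0.032, and that of all genes -0.022. At 12 h TAP1 was higher and HLA-B, HLA-C and HLA-F lower, 4 of 9, against 12.4% of all genes (5.96% higher, 6.48% lower). The members' median was then -0.048, and that of all genes -0.0032. At 24 h TAP1 was again the one member called higher, and HLA-B, HLA-C, HLA-F and B2M were lower, so 5 of 9 were called against 35.1% of all genes (18% higher, 17.1% lower). Their median was -0.001, beside -0.0017 for all genes.

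**Figure D2:**
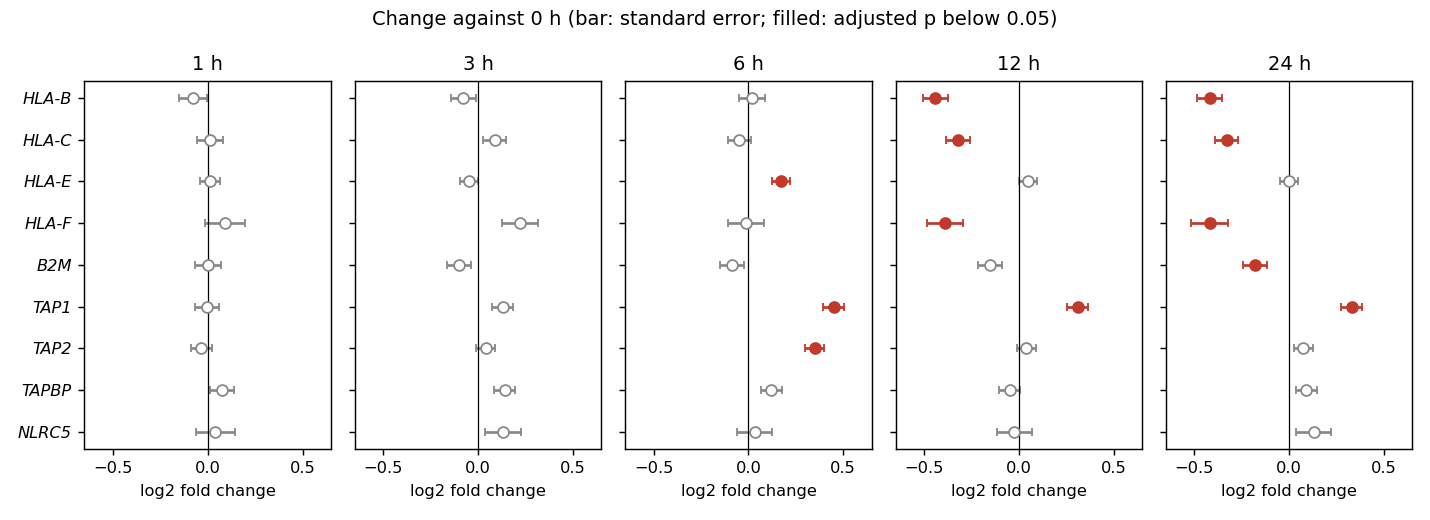
Log2 fold change of each gene against 0 h (horizontal axis, 1 panel per time) with its standard error as a bar; filled points have an adjusted p below 0.05. TAP1 and the heavy chains HLA-B, HLA-C and HLA-F lie on opposite sides of 0 at 12 and 24 h.

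TAP1, one of the subunits of the peptide transporter, rose and stayed up. Its levels in the 0 h libraries were 97.2, 108.1 and 104.4 CPM, and in the 6 h libraries 142.1, 139.9 and 140.8 CPM. Those at 12 h were 124.9, 126.1 and 132.3 CPM, and at 24 h 136.0, 129.2 and 123.2 CPM. All 9 libraries from 6 h on lay above the highest 0 h library, while the 2 libraries at 1 h (102.9 and 103.1 CPM) lay among those of 0 h and the 3 h libraries (109.0 to 117.2 CPM) just above them. The log2 fold change was 0.45 ± 0.0549 (SE) at 6 h (adjusted p = 1.2e-05), 0.31 ± 0.0549 at 12 h (0.00131) and 0.33 ± 0.055 at 24 h (2.4e-04). The step from 3 to 6 h was called (0.32 ± 0.055, adjusted p = 2.3e-04), in a comparison where 3 members were higher against 22.9% of all genes (20.3% lower, 43.2% in either direction). The value at 12 h was lower than at 6 h by a log2 difference that missed the threshold (-0.14 ± 0.0544, adjusted p = 0.07).

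TAP2, the partner subunit, rose at 6 h and fell again by 12 h. Its levels were 177.9, 181.5 and 181.7 CPM at 0 h and 221.3, 229.7 and 236.7 CPM at 6 h, then 184.2, 192.3 and 179.4 CPM at 12 h and 180.0, 197.9 and 191.7 CPM at 24 h. The 6 h libraries did not overlap with those of any other time, and the 12 and 24 h libraries overlapped with those of 0 h. Against 0 h, TAP2 rose by 0.35 ± 0.0507 on the log2 scale at 6 h (adjusted p = 8.0e-05), and the difference was 0.039 ± 0.0508 at 12 h (0.66) and 0.074 ± 0.0508 at 24 h (0.268). From 3 to 6 h TAP2 rose by 0.31 ± 0.0508 (adjusted p = 1.6e-04), and from 6 to 12 h it fell by 0.31 ± 0.0506 on the log2 scale (adjusted p = 3.2e-04), one of 5 members lower in that step, against 11.9% of all genes (8.7% higher, 20.6% in either direction). A read-through entry, AL669918.1, covers the whole of TAP2 on the same strand and held up to 8.44% as many counts as TAP2. The sum of both entries was also highest at 6 h, at 185.1 to 196.0 CPM at 0 h, 229.8 to 249.0 at 6 h and 185.9 to 198.7 at 12 h, but at 24 h it was 194.5 to 211.7 CPM, with a mean of 204.7 against 190.8 at 0 h. TAP2 alone was called higher at 24 h with the offsets for length and GC (0.14, adjusted p = 0.0325) and with library size only (0.15, 0.0492).

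TAPBP, the tapasin gene, was called at no time against 0 h. It stood at 247.0, 245.8 and 245.1 CPM at 0 h, 259.3, 277.3 and 264.4 CPM at 6 h, and 259.3, 262.9 and 263.1 CPM at 24 h. The 3 h libraries (274.0, 288.8 and 250.7 CPM) were all above those of 0 h, by 0.14 ± 0.0551 (adjusted p = 0.083), called with DESeq2 (0.14, 0.0455) and without 3 h replicate 3 (0.20, 0.0183). So were the 6 and 24 h libraries, but neither difference was called (0.12 ± 0.0549, adjusted p = 0.11, and 0.09 ± 0.0549, adjusted p = 0.213). From 6 to 12 h it fell by 0.17 ± 0.0549 on the log2 scale (adjusted p = 0.037), a call made under 9 of 18 other settings.

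The classical heavy chains HLA-B and HLA-C, which present peptides to CD8 T cells, fell late. HLA-B was at 1112, 1159 and 1139 CPM at 0 h and at 1222, 1124 and 1109.8 CPM at 6 h, where the libraries overlapped. At 12 h it was at 806.3, 791.6 and 914.7 CPM and at 24 h at 933.4, 808.6 and 807.7 CPM, all below every library of 0 to 6 h. The log2 fold change was -0.44 ± 0.0666 at 12 h (adjusted p = 2.9e-04) and -0.42 ± 0.0666 at 24 h (1.4e-04), a change of -26.3% and of -25.2%, and 0.019 ± 0.0664 at 6 h (0.855). The fall took place between 6 and 12 h (-0.46 ± 0.0666, adjusted p = 9.1e-05), with 0.021 ± 0.0665 between 12 and 24 h (0.868).

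HLA-C was at 396.1, 405.9 and 395.1 CPM at 0 h, at 313.5, 301.5 and 340.8 CPM at 12 h and at 342.5, 315.6 and 296.0 CPM at 24 h. The libraries of both late times lay below all of those at 0 h. HLA-C was lower than at 0 h by a log2 fold change of -0.32 ± 0.0615 at 12 h (adjusted p = 0.00212), and of -0.33 ± 0.0616 at 24 h (6.2e-04). The 24 h call was lost with offsets for transcript length and GC content (-0.12, adjusted p = 0.0623). From 6 to 12 h it fell by 0.28 ± 0.0615 on the log2 scale (adjusted p = 0.00369). At 6 h HLA-C did not pass the test (-0.049 ± 0.0614, adjusted p = 0.574).

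HLA-E, a heavy chain of limited variation that is read by NKG2 receptors of natural killer cells, rose at 6 h. Its levels were 381.4, 400.4 and 402.6 CPM at 0 h, 442.0, 447.7 and 440.0 CPM at 6 h and 404.4, 387.7 and 391.4 CPM at 24 h. The 6 h libraries lay above those of every other time, and those of 24 h lay among those of 0 h. It rose by 0.17 ± 0.0465 at 6 h against 0 h (adjusted p = 0.0113) and by 0.21 ± 0.0466 against 3 h (0.00118), and the difference from 0 h at 24 h was -0.001 ± 0.0465 (0.993). The call at 6 h against 0 h was lost with upper-quartile scaling (0.10, adjusted p = 0.113), without a filter (0.17, 0.0685), with replicates 2 and 3 averaged at 6 h and 24 h (0.15, 0.0679) and without 0 h replicate 1 (0.14, 0.0612).

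HLA-F, a low-abundance nonclassical heavy chain, fell at 12 and 24 h. It was at 20.0, 21.3 and 22.2 CPM at 0 h, at 14.5, 15.9 and 18.0 CPM at 12 h and at 17, 15.6 and 14.7 CPM at 24 h, with no overlap between 0 h and either late time. The log2 fold change was -0.39 ± 0.0968 at 12 h (adjusted p = 0.0137) and -0.42 ± 0.0979 at 24 h (0.0029). The 12 h call was lost without 12 h replicate 1 (-0.33, adjusted p = 0.0537) or 12 h replicate 2 (-0.37, 0.0614). The counts behind it were 212 to 364 per library. An antisense entry, HLA-F-AS1, held up to 13.6% as many counts. From 6 to 12 h HLA-F fell by 0.37 ± 0.0967 (adjusted p = 0.0105), which was not called without 12 h replicate 1 (-0.31, 0.0541).

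B2M, the light chain shared by all class I molecules, was called against 0 h at 24 h and at no other time without the offsets. It was at 1086, 1046 and 1165 CPM at 0 h, at 959.2, 995.0 and 1014 CPM at 12 h, and at 1062, 919.2 and 936.5 CPM at 24 h. The 12 h libraries were all below those of 0 h but the difference was not called (-0.15 ± 0.063, adjusted p = 0.12). The 24 h libraries overlapped with those of 0 h, since replicate 1 was higher than a 0 h library. At 24 h B2M was called lower (-0.18 ± 0.063, adjusted p = 0.0356), under 11 of 18 other settings. The call was lost with library size as the only scaling (-0.10, adjusted p = 0.204), with only the 2 groups fitted (-0.18, 0.0801), with replicates 2 and 3 averaged at 6 h and 24 h (-0.15, 0.138) and without 0 h replicate 1 (adjusted p = 0.0651), 0 h replicate 3 (-0.14, 0.135), 24 h replicate 2 (-0.14, 0.158) or 24 h replicate 3 (-0.15, 0.135).

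NLRC5, the transactivator, was not called in any comparison without offsets for transcript length and GC content. It stood at 24.5, 22.6 and 22.7 CPM at 0 h (23.2 ± 1.05, SD, n = 3), and the 6 h libraries held 21.6, 24.5 and 25.1 CPM. Those of 12 h held 24.5, 22.7 and 21.6 CPM, and those of 24 h held 24.5, 26.2 and 25.6 CPM. The libraries of 6 h and of 12 h overlapped with those of 0 h, whereas before rounding all 3 of 24 h lay above every library of 0 h and of 12 h. Differences against 0 h ran from -0.023 ± 0.0929 at 12 h (adjusted p = 0.903) to 0.13 ± 0.0927 at 24 h (0.289). A missed threshold does not show that NLRC5 was constant.

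Between 12 and 24 h 0 members were called, against 12% of all genes (6.42% higher, 5.6% lower), and 1 had an unadjusted p below 0.05; DESeq2 called 0. Between 1 and 3 h the count was also 0, against 5.73% (3.17% higher, 2.56% lower), with 1 at an unadjusted p below 0.05, and DESeq2 called 0 as well.

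Ratios between members within a library do not depend on how libraries were scaled. They do carry each library's trends with transcript length and GC content, for which no ratio was corrected. The smallest exact two-sided permutation p is 0.1 with 3 libraries against 3, and 0.2 with 2 against 3, as at 1 h. None can therefore reach 0.05, and 25 such comparisons were made. The log2 ratio of TAP1 to B2M was -3.41 ± 0.119 (SD, n = 3) at 0 h, and -2.88 ± 0.0397 at 6 h. It was -2.95 ± 0.0234 at 12 h and -2.91 ± 0.0694 at 24 h, which makes differences of 0.53, 0.46 and 0.50 (exact permutation p = 0.1 each). The ratio of TAP1 to TAP2 was -0.81 ± 0.0621 at 0 h, -0.70 ± 0.0562 at 6 h (exact permutation p = 0.2), -0.54 ± 0.0876 at 12 h and -0.55 ± 0.129 at 24 h (exact permutation p = 0.1 for both). The 12 and 24 h libraries lay above all 0 h libraries in this ratio, and the 6 h libraries overlapped with them. The ratio of HLA-B to B2M was 0.05 ± 0.0908 at 0 h and fell below it late, with -0.24 ± 0.0911 for 12 h and -0.20 ± 0.0161 for 24 h (exact permutation p = 0.1 for both). These genes differ in GC content (58.95% for HLA-B, 39.41% for B2M). With offsets for length and GC, the changes against 0 h of HLA-B and B2M were closer, at -0.32 and -0.17 for 12 h and -0.23 and -0.12 for 24 h. Without them they were -0.44 and -0.15, and -0.42 and -0.18. HLA-C to HLA-B rose from -1.51 ± 0.0193 to -1.35 ± 0.0141 at 3 h, a difference of 0.16 (exact permutation p = 0.1), though neither gene was called alone. The same ratio was lower than at 0 h at 6 h (-1.58 ± 0.0139, difference -0.068) and higher at 12 h (0.12) and 24 h (0.093), each with an exact permutation p of 0.1. HLA-E to HLA-B, a ratio chosen after the values were seen, was 0.49 higher at 12 h and 0.42 higher at 24 h than at 0 h (exact permutation p = 0.1 for both).

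**Figure D3:**
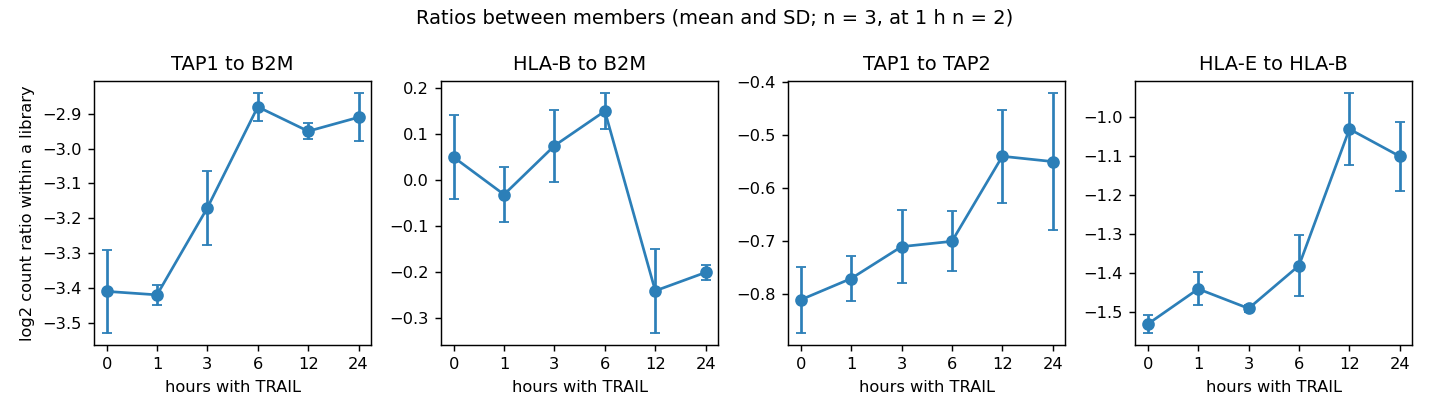
Log2 ratio of the counts of a pair of genes within a library (vertical axis, mean with SD; n = 3, at 1 h n = 2) against hours with 45 nM TRAIL (horizontal axis, evenly spaced). TAP1 to B2M is 0.53 higher at 6 h than at 0 h, and HLA-E to HLA-B is 0.49 higher at 12 h.

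The members fell into groups by how their levels varied over the 17 libraries, given here as Pearson r of log2 CPM with no p, since libraries of a time share treatment and all share the scaling. HLA-B, HLA-C and HLA-F varied together (r = 0.92 for HLA-B with HLA-C, 0.86 with HLA-F, and 0.95 for HLA-C with HLA-F). TAP1, TAP2 and HLA-E formed another group (r = 0.71 for TAP1 with TAP2, 0.69 and 0.77 for HLA-E with each). Between these groups the values were low or negative, such as -0.28 for HLA-B with TAP1. B2M had r of 0.70 with HLA-B and -0.48 with TAP1, and NLRC5 was nearest to TAPBP (0.65). Among 11360 other genes of sufficient level, those most like HLA-B were C1R (0.963), CFB (0.953) and MELTF (0.947). Those most like TAP1 were C11orf95 (0.936) and CREB3 (0.934), and those most like B2M were KDELR2 (0.906), PAICS (0.875) and DSTN (0.864).

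Counts followed transcript length and GC content to a different degree in different libraries, and these trends moved with time. Relative to the average library, log2 CPM sloped per 10 points of GC by -0.015 to 0.078 at 0 h and -0.021 to 0.15 at 3 h. The slopes were -0.057 to -0.0061 at 6 h, -0.11 to -0.0026 at 12 h and -0.08 to -0.032 at 24 h. Only the 24 h libraries did not overlap with those of 0 h in this slope. With offsets that remove each library's trend, the rise of TAP1 was 0.49 at 6 h, 0.36 at 12 h, and 0.38 at the last time, and that of TAP2 was 0.41 at 6 h, so both kept their calls. HLA-B remained lower at 12 h (-0.32, adjusted p = 9.8e-05) and at 24 h (-0.23, 0.00133), and became called higher at 6 h (0.20, 0.00478). HLA-C kept its call at 12 h (-0.19, 0.00802), and at 6 h went from -0.049 to 0.14 (0.0322). HLA-F kept both late calls (-0.28, adjusted p = 0.0182, and -0.25, 0.0193). TAPBP became called higher at 6 h (0.26, adjusted p = 7.0e-05) and at 24 h (0.25, 1.4e-04), and from 3 to 6 h it went from -0.022 to 0.15 (0.00663). B2M was then called lower at 3 h (-0.11, adjusted p = 0.049) and at 12 h (-0.17, 0.00377) as well as at 24 h (-0.12, 0.0228). TAP1 was then already called higher at 3 h (0.15, adjusted p = 0.0183). NLRC5 was called at no time against 0 h with these offsets either, but it was called lower at 6 h than at 3 h (-0.25, adjusted p = 0.0172). The offsets can also remove real changes that follow length or GC, and their part in each result was not tested.

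**Figure D4:**
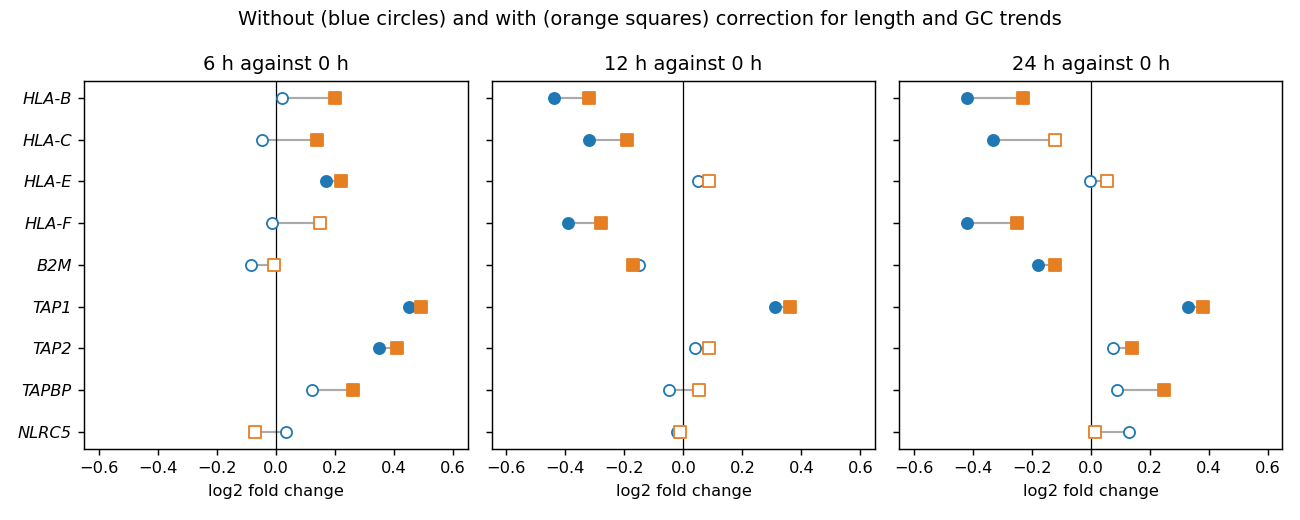
Log2 fold change against 0 h (horizontal axis) at 6, 12 and 24 h without (blue circles) and with (orange squares) offsets for each library's trend with transcript length and GC content; filled symbols have an adjusted p below 0.05. TAP1 is filled at all 3 times with and without the offsets, while the heavy chains HLA-B, HLA-C and HLA-F and the gene TAPBP move upward with the offsets, HLA-C and HLA-F crossing 0 at 6 h.

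The wider pathway was described by gene lists, whose counts are to be read against the shares of all genes given above. In the immunoproteasome list, which holds the catalytic subunits PSMB8, PSMB9 and PSMB10 and the activator subunits PSME1 and PSME2, 1 of 5 was higher at 3 h (PSME2, 0.31 ± 0.0814, adjusted p = 0.0132). That call was lost without 0 h replicate 2 (0.28, 0.0643) or 3 h replicate 2 (0.27, 0.0632). At 6 h 2 of 5 were lower, PSMB10 (-0.37 ± 0.119, adjusted p = 0.026) and PSME1 (-0.22 ± 0.0747, 0.0293), at 12 h 0 were called, with 1 at an unadjusted p below 0.05, and at 24 h PSMB10 was lower (-0.40 ± 0.119, 0.0157). At 6 h 0 of the 5 were called without 0 h replicate 1, 6 h replicate 2 or 6 h replicate 3, and at 24 h the PSMB10 call was lost without 0 h replicate 1 (-0.35, 0.0722), 24 h replicate 2 (-0.35, 0.0689) or 24 h replicate 3 (-0.31, 0.0847). With replicates 2 and 3 averaged at 6 h and 24 h, 0 were called at either time. With the length and GC offsets these falls were not called (-0.15, adjusted p = 0.115, and -0.029, 0.649, at 6 h, and -0.14, 0.11, at 24 h). PSMB9, which lies head to head with TAP1, was at 43.0, 44.6 and 40.0 CPM at 0 h and 38.5, 37.9 and 40.8 CPM at 6 h, the time at which TAP1 was highest. Its log2 fold change was -0.12 ± 0.0862 at 6 h (adjusted p = 0.311) and 0.0062 ± 0.0858 at 24 h (0.963; with the offsets 0.29, 0.00132). PSMB8 was not called against 0 h either, at -0.11 ± 0.0687 at 6 h (0.218) and -0.12 ± 0.0687 at 24 h (0.168). From 3 to 6 h it was lower (-0.24 ± 0.0689, adjusted p = 0.00777). In that step 4 of the 5 were lower (PSMB8, PSMB10, PSME1 and PSME2), against 20.3% of all genes lower. How those 4 calls fare with the offsets is not reported here.

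Of the 9 genes for loading, trimming and folding, ERAP1, an aminopeptidase that trims peptides in the endoplasmic reticulum, rose at 6 h and 24 h. It was at 69.3, 80.9 and 84.7 CPM at 0 h, 106.0, 119.1 and 113.5 CPM at 6 h, and 101.5, 119.9 and 121.5 CPM at 24 h. The libraries of both times lay above all of those at 0 h, and the rises were 0.53 ± 0.0955 on the log2 scale (adjusted p = 6.3e-04) and 0.55 ± 0.0955 (4.0e-04). The chaperone HSPA5 was lower at 6 h (-0.22 ± 0.0562, adjusted p = 0.00756) and higher at 12 h (0.29 ± 0.0562, 0.00233). At 24 h 5 of the 9 were higher and 0 lower, among them the aminopeptidase LNPEP (0.39 ± 0.103, adjusted p = 0.00696) and the chaperone CANX (0.38 ± 0.0944, 0.00478). At 3 h both had been lower (LNPEP -0.41 ± 0.108, adjusted p = 0.014, and CANX -0.32 ± 0.0946, 0.0269), as 2 of the 9 were, with 0 higher. Without 0 h replicate 2 or 3 h replicate 2, 0 of the list were called at 3 h. At 24 h LNPEP was not called with the offsets (0.13, 0.06). HSPA5, one of the 5 (0.18 ± 0.0562, adjusted p = 0.0168), was not called with the offsets (0.084, 0.177), in the fit of 2 groups (0.17, 0.0798), or without 0 h replicate 2 (0.15, 0.0696) or 24 h replicate 1 (0.13, 0.0602).

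Of the 21 regulators (the RFX, NF-Y and CREB families, NF-kB and interferon signalling), 10 were higher and 2 lower at 6 h. NFKB1, an NF-kB subunit, was at 33.2, 40.7 and 38.8 CPM at 0 h and 69.4, 77.3 and 84.2 CPM at 6 h, a log2 fold change of 1.04 ± 0.0944 (adjusted p = 3.7e-07). NFKB1 was also higher at 3 h (0.60 ± 0.0964, 2.7e-04) and 24 h (0.61 ± 0.0955, 1.4e-04), and not called at 12 h (0.16 ± 0.0965, 0.306). RELA, its transactivating partner, rose by 0.35 ± 0.0581 at 6 h (2.3e-04) and was not called at 12 h (0.024 ± 0.0583, 0.829). RFX5, a subunit of the RFX complex that works with NLRC5, was at 46.7, 43.7 and 47.5 CPM at 0 h and 66.3, 70.9 and 74.7 CPM at 24 h. Its rise was called at 6 h (0.28 ± 0.0605, adjusted p = 0.00223), 12 h (0.31 ± 0.0603, 0.00259) and 24 h (0.62 ± 0.06, 8.7e-07). RFXANK, another subunit, was lower at 6 h (-0.40 ± 0.0884, adjusted p = 0.00255). IRF1, an interferon regulatory factor, was higher at 3 h (0.31 ± 0.0665, adjusted p = 0.00329). At 6 h it was lower by the test (-0.18 ± 0.067, 0.0488), a call lost with the replicate number as a block (-0.18, 0.0608) and without 0 h replicate 3 (-0.12, 0.208). It was also lost with library size only (-0.18, 0.0509), without a filter (-0.18, 0.124), with limma-voom (-0.18, 0.0545) and with replicates 2 and 3 averaged (-0.19, 0.0971). The same held without 0 h replicate 2 or any 1 of the 6 h libraries. At 24 h IRF1 was higher (0.21 ± 0.0662, adjusted p = 0.021). That call was lost in the fit of 2 groups (0.20, 0.0609) and without 0 h replicate 1 (0.15, 0.124), 0 h replicate 2 (0.20, 0.0576) or 24 h replicate 1 (0.14, 0.107). IRF2, a factor of the same family, was lower at 3 h (-0.36 ± 0.0895, adjusted p = 0.00915; -0.30, 0.0565, without 3 h replicate 1) and higher at 6, 12 and 24 h (0.39, 0.44 and 0.44, adjusted p at most 0.00194). At 12 h 4 regulators were higher and 0 lower, and at 24 h 12 were higher and 1 lower, or 8 in all without 0 h replicate 1 or 2 or 24 h replicate 2, and also with replicates 2 and 3 averaged. The lower one was RFXAP, a further RFX subunit (-0.51 ± 0.171, adjusted p = 0.0246), not called without 0 h replicate 1 (-0.51, 0.0656).

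Class II genes, which present peptides to CD4 T cells and share the RFX complex with class I, were mostly lower at 12 h, when 6 of the 7 tested were called lower and 0 higher, with a median log2 fold change of -0.46, and the transactivator CIITA was not called (0.035 ± 0.0974, adjusted p = 0.852). Of the 6 calls at 12 h, that of HLA-DMB was lost without 0 h replicate 2 (-0.36, adjusted p = 0.149), 0 h replicate 3 (-0.46, 0.0668) or 12 h replicate 2 (-0.35, 0.183). That of HLA-DMA was lost without 0 h replicate 1 (-0.34, 0.0577) or 12 h replicate 3 (-0.34, 0.0538). HLA-DQA1 had too few counts to be tested. HLA-DRA, the alpha chain of the HLA-DR dimer, was at 66.8, 61.7 and 69.6 CPM at 0 h, 48.4, 43.8 and 49.1 CPM at 12 h and 44.1, 37.5 and 39.4 CPM at 24 h, with no overlap between 0 h and either late time. Its log2 fold change was -0.49 ± 0.0792 at 12 h (adjusted p = 5.7e-04) and -0.71 ± 0.0804 at 24 h (5.1e-06). HLA-DPB1, a chain of another class II dimer, was at -0.74 ± 0.127 at 12 h (adjusted p = 9.0e-04) and -0.87 ± 0.13 at 24 h (8.2e-05). CD74, the class II chaperone, was at -0.49 ± 0.0766 at 12 h (4.3e-04). At 6 h 3 of the 7 were lower, and 0 were called without 0 h replicate 1 or 6 h replicate 3 and 1 with the offsets. At 24 h 4 of the 7 were lower, HLA-DMA (-0.24 ± 0.0933, adjusted p = 0.055) and HLA-DMB (-0.096 ± 0.132, 0.603) were not called, and CIITA, the class II transactivator and a relative of NLRC5, was higher (0.61 ± 0.0944, adjusted p = 1.1e-04), after being lower at 6 h (-0.34 ± 0.101, 0.0151; -0.30, 0.0688, without 0 h replicate 1). CIITA stood at 11.9, 11.5 and 10.3 CPM at 0 h and 16.1, 17.6 and 17.9 CPM at 24 h, so it was higher at 24 h while 4 of the genes it is known to act on were lower.

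Among 7 class I-like genes tested, MR1, which presents vitamin B metabolites to MAIT cells, was higher at 24 h. The list had 2 genes lower at 3 h, HFE and ULBP2 (-0.41 ± 0.121, adjusted p = 0.0233), and 1 gene lower at 6 h. At 12 h 0 were called (1 at an unadjusted p below 0.05), and at 24 h 3 were higher. MR1 was at 5.23, 5.29 and 6.10 CPM at 0 h and 9.54, 9.42 and 9.67 CPM at 24 h, with no overlap (0.78 ± 0.12, adjusted p = 1.0e-04), and at 12 h it was not called (-0.056 ± 0.127, 0.819). HFE, an iron regulator of class I fold, was lower at 3 h (-0.39 ± 0.0862, adjusted p = 0.0039). It was also lower at 6 h (-0.33 ± 0.0838, 0.00662), a call lost without 6 h replicate 3 (-0.27, 0.0536). HFE was higher at 24 h (0.26 ± 0.0809, 0.0177), a call lost with the offsets (0.076, 0.467). MICB, a stress ligand of the NKG2D receptor, was higher at 24 h (0.16 ± 0.0576, adjusted p = 0.0409). That call was lost with upper-quartile scaling (0.13, 0.0756), without a filter (0.16, 0.175), in the fit of 2 groups (0.15, 0.0989) and with replicates 2 and 3 averaged (0.14, 0.143). It was also lost without 0 h replicate 1 (0.12, 0.187), 0 h replicate 2 (0.17, 0.0564), 24 h replicate 2 (0.16, 0.092) or 24 h replicate 3 (0.14, 0.139). CD1D, HLA-G and ULBP1 had too few counts to be tested.

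**Figure D5:**
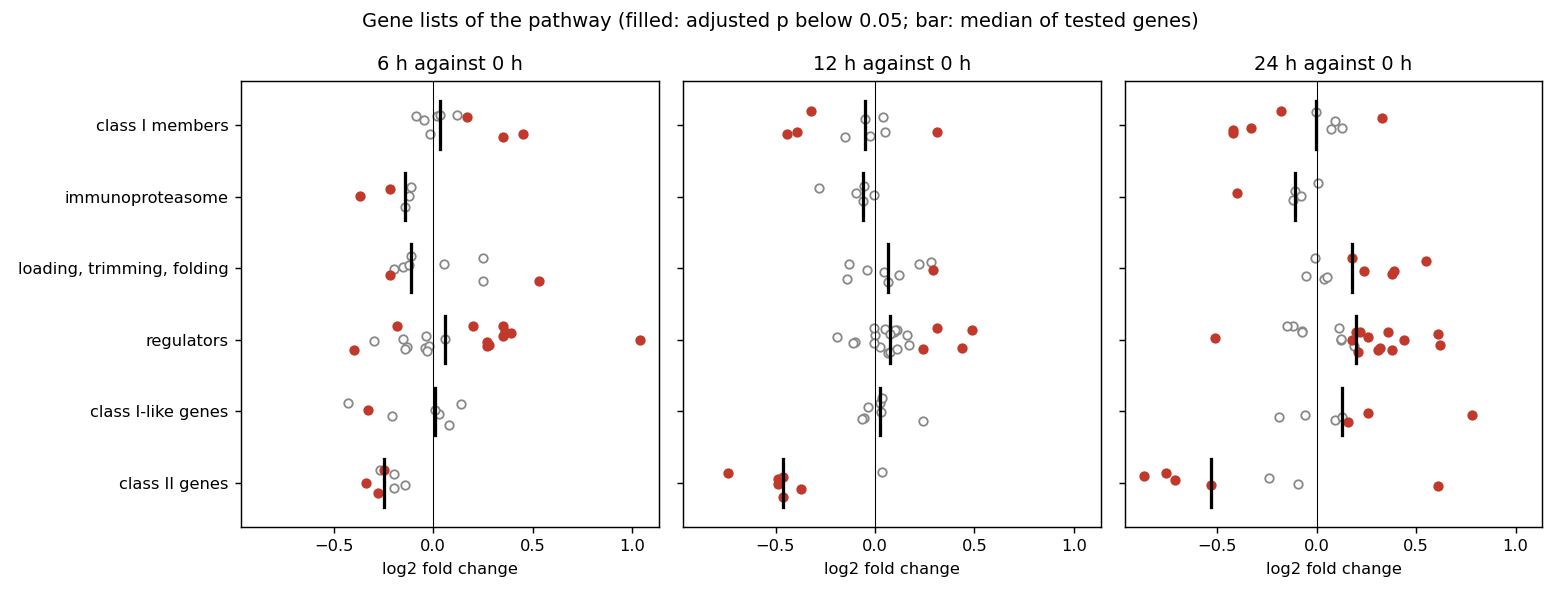
Log2 fold change against 0 h (horizontal axis) of each tested gene of the class I members and of 5 lists of the pathway at 6, 12 and 24 h; filled points have an adjusted p below 0.05 and the bar is the median. The class II list lies mostly left of 0 at 12 h, with a median of -0.46, and 12 regulators are called to the right of 0 at 24 h.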

How the data were processed

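The authors deposited 1 table of expected counts per gene, not scaled to depth or length, made with RSEM per the file name; 10.8% of the values were not whole. The submitters' processing notes list cutadapt 1.18, STAR 2.7.0f and the build hg38. The annotation release and the strand setting are not given in the sources used here. Per the labels' protocols, a stranded mRNA kit was used and sequencing was paired-end.

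Expected counts were rounded and fitted with edgeR 4.0.16 (R 4.3.3): filterByExpr, TMM, 1 robust quasi-likelihood fit of the 6 times over 17 libraries, and Benjamini-Hochberg adjustment over 15365 genes. CPM use the TMM-scaled totals; log2 CPM has a prior count of 2. A standard error is the unshrunken coefficient over the root of F. The labels do not say that replicates were separate cultures, so p-values measure the spread between these libraries, which may be technical. The calling script was tested on simulated data.

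Lengths, GC content and positions come from GENCODE 29, matched by Ensembl identifier (58552 of 58870 entries), and promoters from RefSeq, matched by symbol. Members and lists were chosen with earlier results of these data known. Named beside the members are, per list and time, up to 3 called genes with the highest and up to 3 with the lowest log2 fold change, and PSMB8, PSMB9, IRF1, RELA, NFKB1 and RFX5; some genes that the rules name are not reported here. Alternatives were RLE, upper-quartile and library-size scaling, DESeq2 1.42.0, limma-voom (limma 3.58.1), no filter, a minimum mean count of 10, non-robust estimation, 2-group fits, a replicate block, unrounded counts, each library left out, replicates 2 and 3 averaged at 6 and 24 h, and length and GC offsets. The block with the offsets was added after seeing the data.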

Additional observations from a re-analysis of the deposited data

How the results depend on the processing

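Over the 9 members and 9 comparisons, alternatives other than left-out libraries and length and GC offsets gave 972 values, of which 952 kept their call, 11 lost it, 9 gained one and 0 reversed. Kept here includes values called in neither fit, which are the larger part. The main fit called between 0 and 5 of the 9 members in a comparison, and only those could lose a call. Leaving out a library gave 468 values, of which 451 kept their call, 12 lost it and 5 gained one; where this left 1 library at 1 h, that library was assumed to vary like the others. The offsets gave 81 values: 64 kept their call, 1 lost it, 14 gained one and 2 reversed, HLA-C at 6 h against 0 h (0.14) and TAPBP at 6 h against 3 h (0.15), with the same values when the block was added. The count of members called against 0 h at 3 h went from 0 to 2 with the offsets, 3 with the replicate block and the offsets, 1 with DESeq2 and 0 to 2 with a library left out. At 6 h it went from 3 to 6 with the offsets, with or without the block. From 3 to 6 h it went from 3 to 7 with the offsets, with or without the block, to 5 with upper-quartile scaling and to between 3 and 5 with a library left out. From 6 to 12 h it went from 5 to 8 with the offsets, with or without the block, and to between 3 and 5 with a library left out. From 12 to 24 h it went from 0 to 1 with the offsets, with or without the block, and with library size only. With a library left out, 3 ratios changed sign: TAP1 to B2M at 1 h (range -0.038 to 0.065), HLA-B to B2M at 3 h (-0.017 to 0.073) and TAP1 to TAP2 at 1 h (-0.0014 to 0.062). The cause of these differences was not tested. No clear pairing by replicate number was seen: deviations of same-numbered libraries had correlations from -0.20 to 0.21 (median 0.011), over 0.1 in 8 of 40 pairs. Those of different number had -0.16 to 0.20 (median -0.0086), over 0.1 in 14 of 80 pairs. These values are descriptive, and pairing was not tested. The replicate block changed 0 of the 81 member calls.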
